A study of Mus musculus with 6 samples.

Results

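Wnt proteins are secreted lipid-modified ligands that bind Frizzled receptors on nearby cells. In the canonical branch they act with the co-receptors Lrp5 and Lrp6 to stabilise beta-catenin, which enters the nucleus with TCF and LEF factors and switches on targets such as Axin2. In other branches they act through Ror receptors and the planar polarity proteins. R-spondins raise the number of Frizzleds at the cell surface, and secreted Frizzled-related proteins, Dickkopfs and Wif1 hold the pathway back. In muscle the pathway is known for roles in the neuromuscular junction, in satellite cells and in the fibrogenic cells that appear after injury.

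The genes described here were chosen by name from the deposited table. They are the Wnt, Frizzled (Fzd), secreted Frizzled-related protein (Sfrp), Dickkopf (Dkk) and R-spondin (Rspo) genes with a number in their symbol, together with Axin2, Lef1, Tcf7, Ror1, Ror2, Wif1 and Frzb. This gave 47 of 25572 genes, made up of 17 Wnt ligands, 4 R-spondins, 10 Frizzleds, 2 Ror receptors, 5 secreted Frizzled-related proteins (Frzb among them), 4 Dickkopfs, Wif1, 3 nuclear or feedback genes and the antisense transcript Fzd10os. The study compared hind limb skeletal muscle of Hdc-/- mice (HDCKO), which carry a deletion of histidine decarboxylase, with that of wild-type mice (WT), 3 days after surgery, and all 6 libraries carry the hind limb ischaemia label HLI. There were 3 mice and 3 libraries in each group, and nothing in the labels says whether the mice were littermates. The sources used here do not give the strain, the age, the leg or the muscle taken, unoperated muscle was not analysed here, and the knockout is not described as limited to a cell type.

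Values are FPKM, fragments per kilobase of gene scaled to library depth, so levels can be compared between genes. Hdc, the deleted gene, stood at 7.49, 7.72 and 8.17 FPKM in WT and at 1.22, 2.46 and 2.52 in HDCKO (log2 change -1.74, SE 0.25, limma adjusted p = 0.00334), and which part of the gene is deleted is not stated. All 15 muscle fibre markers examined were higher in HDCKO, where they summed to 39862 to 74846 FPKM against 332 to 1307 in WT, so the libraries labelled as WT muscle held little fibre RNA. Of 10 fibroblast markers, 5 were lower in HDCKO, with sums of 1266 to 2248 FPKM against 3110 to 5654 in WT, a count near the 42.6% of all genes tested that were called lower. Of 8 macrophage markers, 3 were lower, or 37.5%, under that share of all genes, with sums of 282 to 2041 against 1972 to 2627 FPKM. Of 6 markers of dividing cells 5 were lower, with sums of 0.524 to 64.4 against 98.1 to 131 FPKM. All 8 neutrophil markers were lower, with sums of 32.7 to 74.9 against 2445 to 14197 FPKM. A change in one of these bulk samples cannot tell fewer cells of a type from less RNA per cell. The part of these cell type differences in the results below was not tested.

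The members split in both directions. In a limma test on log2(FPKM + 0.5), with p-values adjusted over all 13288 genes that had a mean of at least 0.5 FPKM, 30 members could be tested. Of these, 7 were higher in HDCKO, 6 were lower and 17 did not pass an adjusted p of 0.05. Among all genes tested, 17.8% were called higher and 42.6% lower. The groups did not overlap for 9 members higher and 10 members lower in HDCKO, where 21.2% and 51.4% of all genes tested were without overlap in those directions. The median log2 change of the tested members was -0.01, beside -0.50 for all genes tested. With median-of-ratios scaling and with quantile normalization the median of all genes moved to -0.04 and -0.12, and the members split into 10 higher and 5 lower under each.

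**Figure D1:**
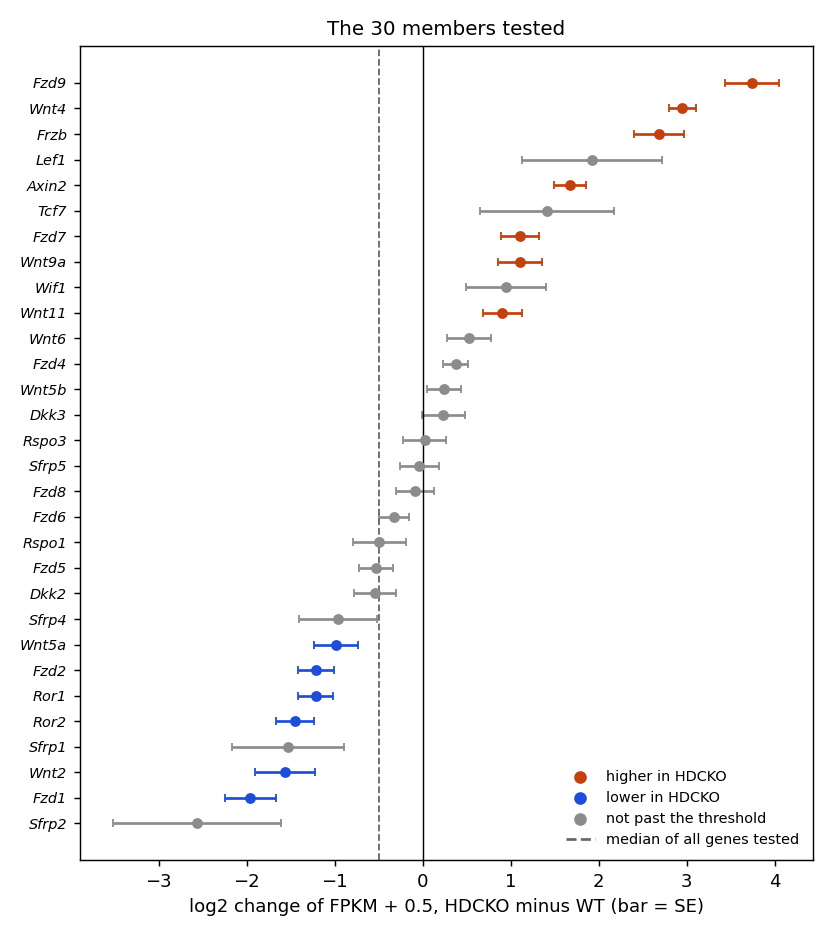
Log2 change of FPKM + 0.5 (HDCKO minus WT, bar = SE) for the 30 members tested, ordered by change; colours mark the 7 members called higher, the 6 called lower and the 17 that did not pass. Fzd9, Wnt4 and Frzb stand at the top with changes of 3.74, 2.95 and 2.69, and the dashed line at -0.50 is the median of all genes tested.

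Wnt4 and Fzd9 had the largest ratios among the 13 members called, and Axin2 is the member most often read as a target of the canonical branch, so their upstream sequence is shown. In GRCm39 with GENCODE release M39, Wnt4 (ENSMUSG00000036856) lies on chromosome 4 at 137004373 to 137027037, plus strand. Fzd9 (ENSMUSG00000049551) lies on chromosome 5 at 135277792 to 135280084, minus strand, and Axin2 (ENSMUSG00000000142) on chromosome 11 at 108811169 to 108841609, plus strand. The windows are the 250 bases before the start of the canonical transcript of Wnt4 (chr4:137004123-137004372, plus) and Fzd9 (chr5:135280085-135280334, minus), with the GC box GGGCGG of either strand in capitals.
Wnt4: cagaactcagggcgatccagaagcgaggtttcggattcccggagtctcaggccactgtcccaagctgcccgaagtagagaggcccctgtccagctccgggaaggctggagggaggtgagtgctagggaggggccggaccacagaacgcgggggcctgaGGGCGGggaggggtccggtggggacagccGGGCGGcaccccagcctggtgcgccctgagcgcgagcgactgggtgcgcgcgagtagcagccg
Fzd9: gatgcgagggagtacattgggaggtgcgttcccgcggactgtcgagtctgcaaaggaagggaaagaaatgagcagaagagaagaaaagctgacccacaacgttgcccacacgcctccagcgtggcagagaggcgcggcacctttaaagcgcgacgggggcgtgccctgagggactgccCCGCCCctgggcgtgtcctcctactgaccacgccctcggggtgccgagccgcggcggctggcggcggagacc
For Axin2, 30 bases at chr11:108811604-108811633 (plus strand) are shown, with a TCF/LEF motif in capitals that begins 22 bases before the start of the canonical transcript and lies within the annotated gene, since another Axin2 transcript starts further upstream.
Axin2: ctcggctcgcgcCTTTGAAgtgcacagtta
The TCF/LEF motif was searched as CTTTGAA or CTTTGAT on both strands, and these letters occur in 7.54% of 21770 such windows of protein-coding genes. Of the 46 protein-coding members, 3 held it: Axin2, Dkk4 and Wnt8a. The GC box stood in 24 of the 46 members and in 36.3% of all windows, CAGCTG in 4 members and 11.9% of all windows, and the MEF2 motif in 1 member and 3.32% of all windows. Each motif was counted on its own, also where matches share bases.

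The Wnt ligands changed places. Wnt4, a ligand known in kidney, gonad and muscle development, was nearly absent from WT muscle, with 0.0655, 0.0987 and 0.113 FPKM in replicates 1, 2 and 3. In HDCKO it had 4.70, 3.80 and 3.79 FPKM, and every HDCKO library stood far above every WT library. The means were 4.10 ± 0.519 and 0.0924 ± 0.0243 FPKM (SD, n = 3 each), a ratio of 44.4 (log2 change 2.95, SE 0.15, limma adjusted p = 0.000177). The WT values rested on 38 fragments in all and the HDCKO values on 1593.

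Wnt9a and Wnt11 were higher as well, by smaller factors. Wnt9a, a ligand known from joint and limb development, had 0.977, 0.785 and 1.78 FPKM in WT and 3.45, 2.77 and 2.85 in HDCKO. Its groups did not overlap, and the ratio of means was 2.56 (log2 change 1.11, SE 0.25, adjusted p = 0.0127). Wnt11, a ligand of the non-canonical branch, had 0.998, 0.778 and 1.56 FPKM in WT and 2.73, 2.09 and 2.61 in HDCKO, again without overlap (ratio 2.23, log2 change 0.91, SE 0.22, adjusted p = 0.0163). In both genes WT replicate 3 was the highest WT library. Wnt9a no longer passed without WT replicate 1 (adjusted p = 0.0501), nor did Wnt11 without WT replicate 1 (adjusted p = 0.0596) or WT replicate 2 (adjusted p = 0.0536).

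Wnt2 and Wnt5a, the most abundant ligands in WT muscle, were lower in HDCKO. Wnt2, a ligand known in lung and vessel development, had 1.53, 1.06 and 3.28 FPKM in WT and 0.218, 0.209 and 0.410 in HDCKO. Its WT libraries spread widely and still lay above all HDCKO libraries, with a WT mean 7.01 times the HDCKO mean (log2 change -1.56, SE 0.35, adjusted p = 0.0121). Wnt5a, the best known non-canonical ligand and a partner of Ror2, had 4.04, 2.14 and 2.45 FPKM in WT and 1.48, 0.965 and 1.08 in HDCKO. The groups did not overlap, and the WT mean was 2.45 times the HDCKO mean (log2 change -0.98, SE 0.25, adjusted p = 0.0190). Wnt5a lost its call under median-of-ratios scaling (-0.56, adjusted p = 0.166) or quantile normalization (-0.70, adjusted p = 0.135), without HDCKO replicate 2 (adjusted p = 0.0697), or without WT replicate 1 (adjusted p = 0.0528) or 3 (adjusted p = 0.0505).

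The other tested ligands, Wnt5b and Wnt6, did not pass. Wnt5b, a close relative of Wnt5a, had 0.617 ± 0.0804 FPKM in WT and 0.838 ± 0.269 in HDCKO, with overlap (log2 change 0.24, adjusted p = 0.302). Wnt6 had 0.193, 0.557 and 0.545 FPKM in WT and 0.562, 0.865 and 1.07 in HDCKO, where the lowest HDCKO library was just above the highest WT library (log2 change 0.53, adjusted p = 0.108). With median-of-ratios scaling both passed as higher (adjusted p = 0.0329 and 0.0204), and Wnt6 also with quantile normalization (adjusted p = 0.0339).

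Summed over the 17 ligands, the level was 9.39, 7.16 and 13.3 FPKM in WT and 14.9, 12.7 and 14.7 in HDCKO, so the ranges of the groups overlapped. This holds for the deposited FPKM, and the sum was not taken under the other scalings. Of that sum, Wnt4 held 0.974% ± 0.357 in WT and 29.1% ± 2.91 in HDCKO (SD, n = 3 each). Wnt2 and Wnt5a held 1.97% ± 0.722 and 8.30% ± 1.43 in HDCKO, against 18.6% ± 5.31 and 30.5% ± 12.3 in WT. The first 3 ligands by level were Wnt4, Wnt9a and Wnt11 in every HDCKO library. In WT the first place went to Wnt5a in replicates 1 and 2 and to Wnt2 in replicate 3.

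**Figure D2:**
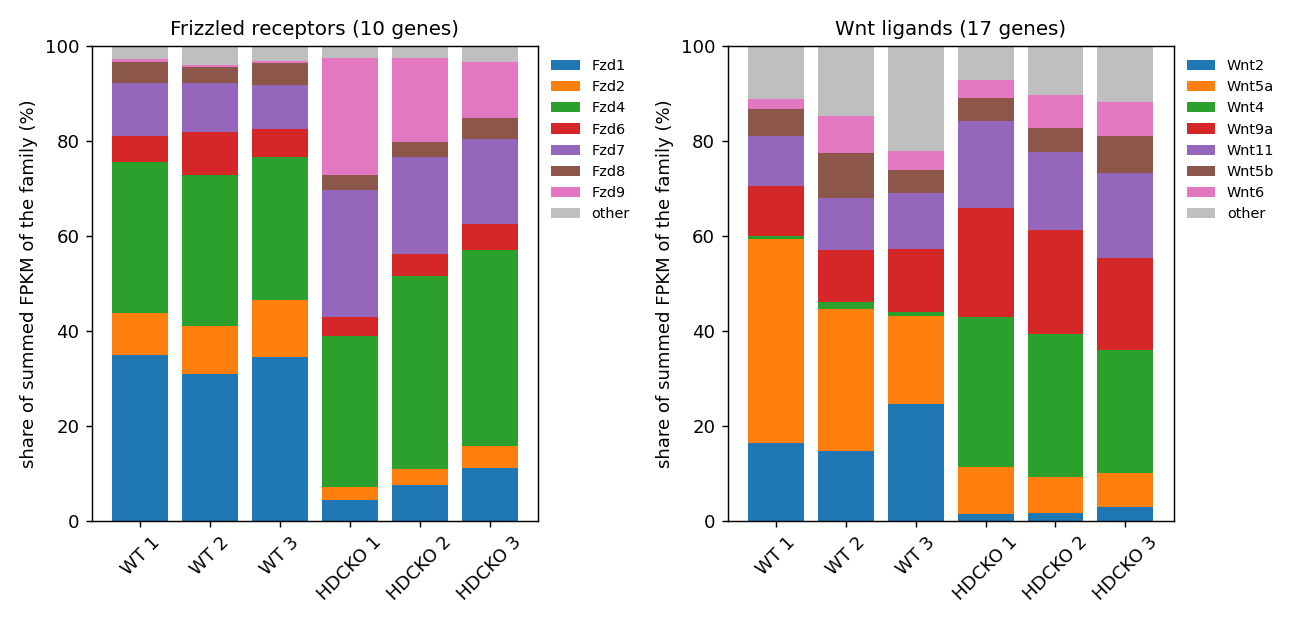
Share of the summed FPKM of the 10 Frizzled receptors (left) and the 17 Wnt ligands (right) held by each gene, in percent, in the 6 libraries; grey stands for all other members of the family. Fzd9 and Fzd7 take the place of Fzd1 and Fzd2 in the HDCKO bars, and Wnt4 takes up 25.9% to 31.5% of the ligand sum in HDCKO and at most 1.38% in WT.

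Of the 17 ligands, 10 were under the filter of 0.5 FPKM and were not tested: Wnt1, Wnt2b, Wnt3, Wnt7b, Wnt8a, Wnt8b, Wnt9b, Wnt10a, Wnt10b and Wnt16. Wnt16 ranged from 0.00861 to 0.443 FPKM, Wnt7b from 0.0122 to 0.0782 and Wnt1 from 0 to 0.0455. Wnt8a had 1 fragment, in WT, and Wnt8b had 1, in HDCKO. Wnt3 had 1 fragment in WT and 3 in HDCKO, and Wnt9b had 2 in WT and 21 in HDCKO. Among the low ligands, 3 reached 0.5 FPKM in a library. Wnt10a had 0.255, 0.302 and 0.742 FPKM in WT and 0.148, 0.294 and 0.758 in HDCKO, and Wnt2b had 0.175, 0.460 and 0.468 in WT and 0.236, 0.541 and 0.394 in HDCKO. Both sets of values overlapped throughout. Wnt10b, whose mean of 0.462 FPKM lay just under the filter, had 0.404, 0.182 and 1.35 FPKM in WT and 0.196, 0.249 and 0.398 in HDCKO. Wnt10b overlaps Wnt1 on the opposite strand of chromosome 15 by 2308 bases. The sources used here do not say whether counting used the strand, so their reads cannot be told apart where they overlap. Wnt6 and Wnt10a lie 5699 bases apart on the same strand of chromosome 1. Both rose from HDCKO replicate 1 to replicate 3, and both had their lowest WT value in replicate 1. The groups did not overlap for Wnt6 but did for Wnt10a.

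R-spondins were scarce. Rspo3, an R-spondin known in vessels, had 0.666, 0.697 and 0.731 FPKM in WT and 0.667, 0.424 and 1.17 in HDCKO (log2 change 0.02, adjusted p = 0.935), and its change was -0.21 without HDCKO replicate 3. Rspo1 had 0.874, 0.535 and 0.564 FPKM in WT and 0.156, 0.764 and 0.157 in HDCKO, where replicate 2 stood among the WT values (log2 change -0.49, adjusted p = 0.198). Its mean of 0.508 FPKM over the 6 libraries was the lowest of the members tested. Rspo2, with 26 fragments in WT and 15 in HDCKO, and Rspo4, with 1 and 2, were not tested.

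In the deposited FPKM the Frizzled receptors kept about the same summed level and changed in makeup. Their sum was 51.6, 43.7 and 52.3 FPKM in WT and 56.4, 52.3 and 51.4 in HDCKO, so the groups overlapped. Fzd1 held 33.4% ± 2.22 of the sum in WT and 7.66% ± 3.36 in HDCKO, while Fzd9 held 0.468% ± 0.194 in WT and 18.0% ± 6.49 in HDCKO (SD, n = 3 each). Of 8 Frizzleds tested, 2 (25%) were higher, 2 (25%) lower and 4 did not pass, beside 17.8% higher and 42.6% lower over all genes.

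Fzd9, a receptor known in bone and at the neuromuscular junction, had the largest change of the members tested on the log2(FPKM + 0.5) scale, while the ratio of mean FPKM was larger for Wnt4 and for Lef1. It had 0.297, 0.255 and 0.128 FPKM in WT and 13.9, 9.27 and 5.98 in HDCKO. Each HDCKO library was at least an order of magnitude above the WT libraries, and the ratio of means was 42.8 (log2 change 3.74, SE 0.31, adjusted p = 0.000533). The WT values came from 50 fragments and the HDCKO values from 2059. HDCKO replicate 1 was highest and replicate 3 lowest, as was the fibre marker sum, at 74846, 63255 and 39862 FPKM in HDCKO replicates 1, 2 and 3. The pericyte and smooth muscle marker sum (328, 310 and 276 FPKM) and the Schwann cell marker sum (210, 185 and 150 FPKM) had the same order. The part of these cells in the Fzd9 values was not tested.

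Fzd7, a receptor known in satellite cells, had 5.78, 4.51 and 4.87 FPKM in WT and 15.1, 10.7 and 9.18 in HDCKO. The groups did not overlap, with 11.6 ± 3.06 FPKM in HDCKO and 5.05 ± 0.655 in WT, a ratio of 2.30 (log2 change 1.11, SE 0.22, adjusted p = 0.00842). Of 8 satellite cell and myoblast markers, 3 (37.5%) were higher in HDCKO, beside 17.8% of all genes tested. Their sums were 41.6, 45.9 and 163 FPKM in HDCKO replicates 1, 2 and 3, against 7.17 to 29.2 FPKM in WT. Fzd7 fell from HDCKO replicate 1 to replicate 3, while this sum rose. The sums of muscle fibre, of pericyte and smooth muscle, and of Schwann cell markers fell in the same order as Fzd7. The part of these cells in the Fzd7 values was not tested.

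Fzd1 and Fzd2, receptors found in many connective tissue cells, were lower in HDCKO. Fzd1 had 18.0, 13.5 and 18.0 FPKM in WT and 2.48, 3.92 and 5.71 in HDCKO, a WT mean 4.09 times the HDCKO mean (log2 change -1.96, SE 0.29, adjusted p = 0.00388). Fzd2 had 4.57, 4.49 and 6.26 FPKM in WT and 1.55, 1.82 and 2.36 in HDCKO, a WT mean 2.67 times that of HDCKO (log2 change -1.22, SE 0.20, adjusted p = 0.00537). Both were lowest in HDCKO replicate 1 and highest in replicate 3 within that group. Within HDCKO the fibroblast marker sum had the same order, with 1266, 1650 and 2248 FPKM in replicates 1, 2 and 3. So did the sums of macrophage, endothelial, T cell, dividing cell, and satellite cell and myoblast markers.

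Fzd4, a receptor of endothelium that also binds norrin, was the most abundant Frizzled in every HDCKO library. It had 16.4, 13.9 and 15.8 FPKM in WT and 17.8, 21.2 and 21.2 in HDCKO, without overlap, but did not pass (log2 change 0.38, SE 0.14, adjusted p = 0.0603). It passed as higher with median-of-ratios scaling (0.89, adjusted p = 0.00700), with quantile normalization (0.81, adjusted p = 0.00494) and without HDCKO replicate 1 (0.46, adjusted p = 0.0479). Of 8 endothelial markers, 5 (62.5%) were lower in HDCKO and none was higher, beside 42.6% of all genes tested called lower. Their sums were 169 to 248 FPKM against 331 to 485 in WT.

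Fzd5, Fzd6 and Fzd8 did not pass. Fzd5 had 1.23, 1.26 and 1.30 FPKM in WT and 0.526, 0.657 and 1.03 in HDCKO, where each HDCKO library lay below each WT library (log2 change -0.53, adjusted p = 0.0508), and it passed as lower with a pseudocount of 1 (adjusted p = 0.0476), with array quality weights (adjusted p = 0.00133) and without HDCKO replicate 3 (-0.69, adjusted p = 0.00680). Fzd6 had 3.29 ± 0.556 FPKM in WT and 2.52 ± 0.293 in HDCKO (log2 change -0.33, adjusted p = 0.138). Fzd8 had 2.07 ± 0.529 and 1.91 ± 0.369 (log2 change -0.09, adjusted p = 0.745). The changes of Fzd6 and Fzd8 were above 0 under both other scalings.

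Fzd10 and Fzd3 were under the filter. Fzd3 ranged from 0.187 to 0.381 FPKM with overlap. Fzd10 had 0.0105, 0.0722 and 0.0451 FPKM in WT and 0.759, 0.431 and 0.409 in HDCKO, from 14 and 162 fragments, and the groups were far apart. The antisense transcript Fzd10os had 0, 0.0112 and 0 FPKM in WT, which is 1 fragment in all, and 0.628, 0.564 and 0.221 in HDCKO, from 112 fragments. When every gene was tested, both passed as higher, with an adjusted p of 0.00957 for Fzd10 and 0.0160 for Fzd10os. Fzd10 lies on chromosome 5 at 128677908 to 128681157, plus strand, and Fzd10os overlaps it by 1663 bases on the minus strand, so their reads cannot be told apart where they overlap.

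The Ror receptor kinases, which bind Wnt5a, were both lower in HDCKO. Ror1 had 1.66, 1.94 and 1.57 FPKM in WT and 0.391, 0.312 and 0.700 in HDCKO (log2 change -1.22, SE 0.20, adjusted p = 0.00506). Ror2 had 2.08, 1.75 and 2.55 FPKM in WT and 0.357, 0.340 and 0.700 in HDCKO (log2 change -1.45, SE 0.21, adjusted p = 0.00366). The WT means were 3.68 and 4.57 times the HDCKO means, and no library of one group reached the other in either gene. HDCKO replicate 3 was the highest HDCKO library for both.

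**Figure D3:**
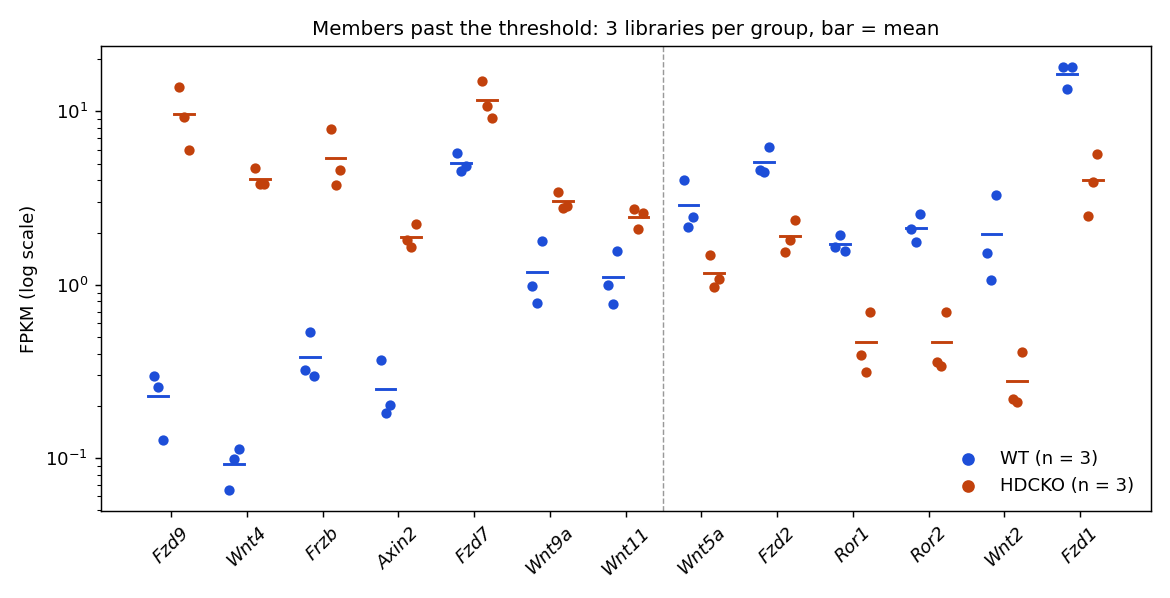
FPKM on a log axis of the 13 members past the threshold, with 1 point per library (WT blue, HDCKO orange, replicates 1, 2 and 3 from left to right) and a bar at the mean of 3. The 7 genes left of the dashed line were called higher in HDCKO and the 6 on the right lower, and in all 13 the points of the groups do not overlap.

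Among secreted antagonists, Frzb stood apart from its family. Frzb, also named Sfrp3 and known in cartilage and muscle, binds Wnt ligands outside the cell. It had 0.322, 0.535 and 0.295 FPKM in WT and 7.88, 3.76 and 4.58 in HDCKO. The groups were separated by a wide gap, with 5.41 ± 2.18 against 0.384 ± 0.132 FPKM, a ratio of 14.1 (log2 change 2.69, SE 0.28, adjusted p = 0.00121). Of 5 tendon markers, 3 (60%) were higher in HDCKO, beside 17.8% of all genes tested. Their sums were 298 to 481 FPKM in HDCKO and 195 to 299 in WT. Frzb and the tendon sum were both highest in HDCKO replicate 1 and lowest in replicate 2. Of the markers, Tnmd and Mkx had that order, while Fmod was lowest in replicate 3 and Scx and Thbs4 were highest there. The part of tendon RNA in the Frzb values was not tested.

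Sfrp1, Sfrp2 and Sfrp4, made by fibroblasts and other mesenchymal cells, had lower HDCKO means and did not pass. Sfrp2 had 51.8, 16.7 and 119 FPKM in WT and 3.41, 4.56 and 25.9 in HDCKO. Its libraries spread widely within each group, and HDCKO replicate 3 stood above WT replicate 2 (log2 change -2.56, SE 0.96, adjusted p = 0.0565). Sfrp1 had 22.3, 5.15 and 13.7 FPKM in WT and 2.30, 2.65 and 8.03 in HDCKO, with the same pair of libraries out of line (log2 change -1.53, SE 0.64, adjusted p = 0.0766). Both passed as lower without HDCKO replicate 3 (Sfrp2 -3.42, adjusted p = 0.0121, and Sfrp1 -2.04, adjusted p = 0.0247) and without WT replicate 2 (Sfrp2 -3.30, adjusted p = 0.0453, and Sfrp1 -2.09, adjusted p = 0.0409).

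Sfrp4 had 16.0, 18.9 and 42.5 FPKM in WT and 7.45, 15.2 and 14.4 in HDCKO, where the nearest libraries of the groups almost met (log2 change -0.96, SE 0.44, adjusted p = 0.1001). Sfrp5 was level, with 13.8 ± 2.31 FPKM in WT and 13.5 ± 3.03 in HDCKO (log2 change -0.04, SE 0.22, adjusted p = 0.890), and its change was 0.48 with median-of-ratios scaling and 0.40 with quantile normalization, without passing. The summed level of the family was 102, 57.2 and 189 FPKM in WT and 35.2, 42.4 and 63.1 in HDCKO. Frzb held 0.469% ± 0.412 of that sum in WT and 12.8% ± 8.31 in HDCKO.

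Dickkopfs and Wif1 did not pass. Dickkopfs act on the Lrp co-receptors, and Wif1 binds the ligands. Dkk2 had 3.995, 3.975 and 6.97 FPKM in WT and 3.08, 3.48 and 2.93 in HDCKO, without overlap (log2 change -0.54, SE 0.24, adjusted p = 0.0896). Dkk3, a divergent member of the family, had 4.16 ± 0.958 FPKM in WT and 5.03 ± 1.45 in HDCKO (log2 change 0.24, adjusted p = 0.422). Dkk1 was listed at 0 in every WT library and in HDCKO replicate 3, and had 3 fragments in HDCKO replicate 1 and 1 in replicate 2. Dkk4 had 1 fragment in WT and 3 in HDCKO. Wif1 had 1.65, 4.87 and 1.64 FPKM in WT and 8.10, 3.70 and 4.34 in HDCKO, where WT replicate 2 stood among the HDCKO values (log2 change 0.94, SE 0.45, adjusted p = 0.112), and it passed as higher without that library (1.38, adjusted p = 0.0365). Schwann cell markers were also higher in WT replicate 2 than in the other WT libraries, with a sum of 121 FPKM against 36.5 and 45.4. They summed to 150 to 210 FPKM in HDCKO, where 2 of 6 (33.3%) were called higher, beside 17.8% of all genes tested.

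**Figure D4:**
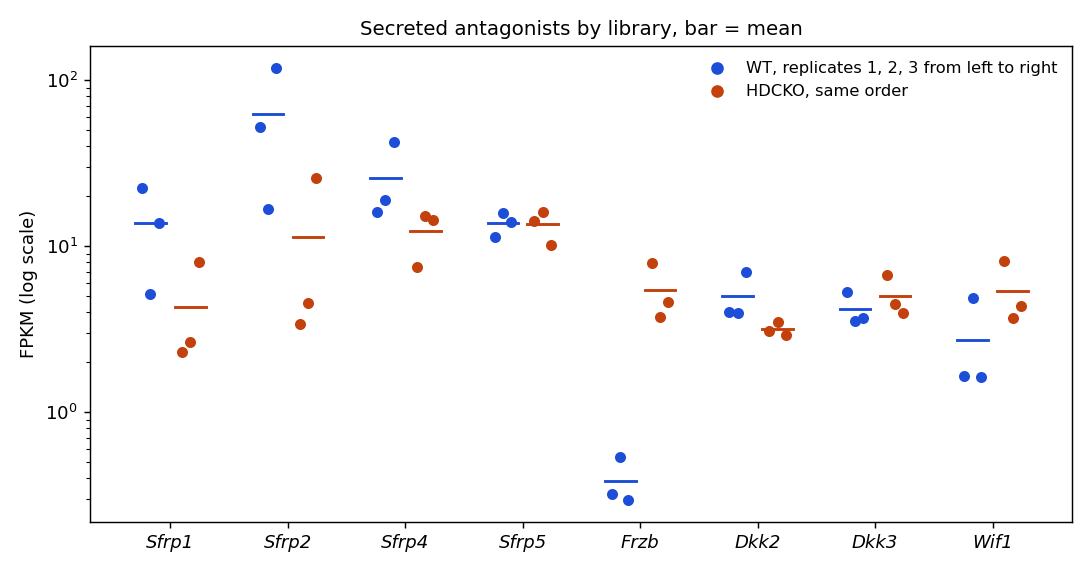
FPKM on a log axis of 8 secreted antagonists, with 1 point per library (WT blue, HDCKO orange, replicates 1, 2 and 3 from left to right) and a bar at the mean. Frzb, at 0.295 to 0.535 FPKM in WT and 3.76 to 7.88 in HDCKO, is the member with a wide gap between groups, while Sfrp1 and Sfrp2 overlap through WT replicate 2 and HDCKO replicate 3.

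Axin2, which is both a target of beta-catenin and a scaffold of the complex that destroys it, was higher in all 3 HDCKO libraries. It had 0.370, 0.182 and 0.202 FPKM in WT and 1.80, 1.65 and 2.23 in HDCKO, from 139 and 1038 fragments. The libraries of a group lay close together and the groups far apart, with a ratio of means of 7.54 (log2 change 1.67, SE 0.18, adjusted p = 0.00131). This is the member whose upstream TCF/LEF letters are printed above, and a match of letters says nothing of what binds there.

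Lef1 and Tcf7, the DNA-binding partners of beta-catenin, followed another pattern. Lef1 had 0.0278, 0.0657 and 0.00598 FPKM in WT and 0.0386, 2.55 and 4.55 in HDCKO, and Tcf7 had 0.224, 0.208 and 0.208 in WT and 0.0481, 2.08 and 4.35 in HDCKO. HDCKO replicates 2 and 3 were high for both genes, and HDCKO replicate 1 was at the WT level for Lef1 and below it for Tcf7. Neither passed (Lef1 log2 change 1.93, SE 0.80, adjusted p = 0.0757, and Tcf7 1.41, SE 0.76, adjusted p = 0.147). Without HDCKO replicate 1 both passed as higher, by 2.88 for Lef1 (adjusted p = 0.00132) and 2.31 for Tcf7 (adjusted p = 0.00367), and Lef1 also with quantile normalization (adjusted p = 0.0491).

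T cells are known to express Lef1 and Tcf7, and within HDCKO the summed T cell markers had the same library order. So did the sums of fibroblast, macrophage, endothelial, dividing cell, and satellite cell and myoblast markers. The T cell receptor chain gene Cd3e had 0.0619, 0.213 and 0.0711 FPKM in WT and 0.0192, 6.17 and 9.86 in HDCKO, each in the order of replicates 1, 2 and 3. The 8 T cell markers summed to 0.338, 50.4 and 89.1 FPKM in the same HDCKO libraries and to 9.34 to 26.2 in WT, where Il7r made up most of the sum. Cd8a was listed at 0 in HDCKO replicate 1, and in limma 0 of the 8 markers passed in either direction, with 0 at an unadjusted p under 0.05. Axin2 did not share this order, since HDCKO replicate 1, with T cell markers near 0, had 1.80 FPKM of Axin2. The part of T cell RNA in the Lef1 and Tcf7 values was not tested.

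**Figure D5:**
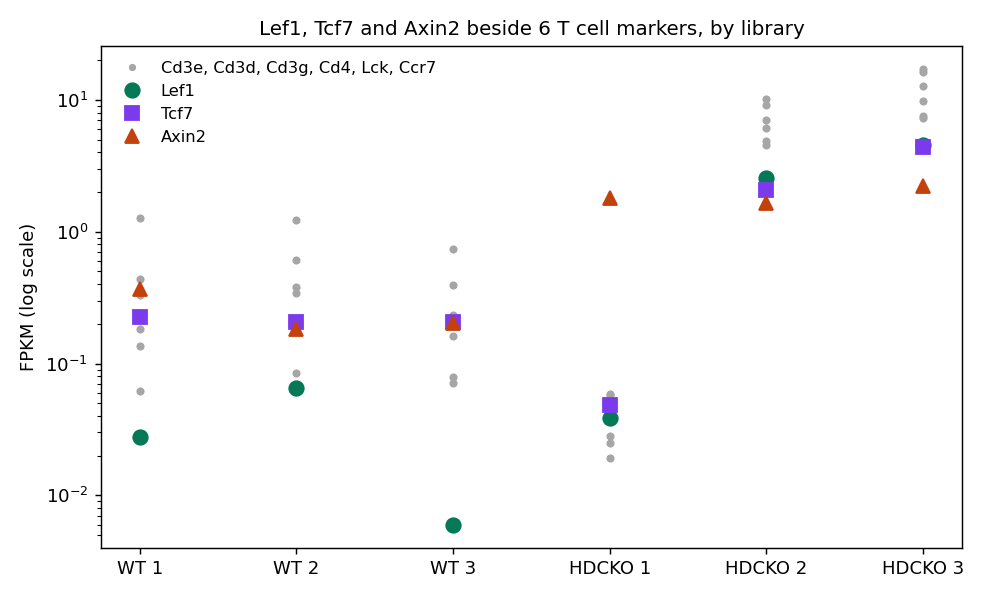
FPKM on a log axis of Lef1, Tcf7 and Axin2 and of 6 T cell markers (grey) in each library. Lef1, Tcf7 and the T cell markers are high in HDCKO replicates 2 and 3 and low in HDCKO replicate 1, while Axin2 lies between 1.65 and 2.23 FPKM in all 3 HDCKO libraries.

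The rest of the pathway was examined through 93 other genes, of which 92 were in the table and 82 were tested. Of these, 6 were higher and 39 lower in HDCKO, with a median log2 change of -0.49, beside -0.50 for all genes tested and the 17.8% and 42.6% called over all genes. With median-of-ratios scaling 22 were higher and 26 lower, and with quantile normalization 17 and 29. The count of lower genes dropped to 19 when HDCKO replicate 2 or WT replicate 3 was left out, and to 21 when WT replicate 1 was.

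Genes for the release and clearance of Wnt proteins were lower in 3 of 4 cases, where 42.6% of all genes tested were called lower. They were Wls, the carrier of Wnt proteins to the cell surface (8.60 ± 3.09 against 17.6 ± 1.75 FPKM in WT, log2 change -1.04), Mesd, a chaperone of Lrp co-receptors (-0.72), and Trabd2b, a protease that inactivates Wnt proteins (-1.58). Of 9 co-receptors and other receptors, 1 (11.1%) was higher and 4 (44.4%) were lower, beside the 17.8% and 42.6% over all genes. Musk, the receptor kinase of the neuromuscular junction whose extracellular part holds a Frizzled-like domain, had 0.618, 0.430 and 0.336 FPKM in WT and 5.05, 3.62 and 6.10 in HDCKO (log2 change 2.48, SE 0.23, adjusted p = 0.000756). The receptor-like kinases Ptk7 (-1.99) and Ryk (-0.51) were lower, and the change of Ryk was 0.01 with median-of-ratios scaling. Mesd no longer passed under either other scaling (adjusted p = 0.164 and 0.0681). Of R-spondin receptors and receptor ligases, 2 of 5 were tested, and neither Lgr4 (0.42, adjusted p = 0.0893) nor the ligase Znrf3 (0.19, adjusted p = 0.351) passed. Lgr4 was called higher under median-of-ratios scaling (adjusted p = 0.0397) and without HDCKO replicate 3 (adjusted p = 0.0184).

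Other antagonists and modulators were higher in 1 and lower in 5 of 11 cases, or 45.5% lower, near the 42.6% over all genes. Shisa2, which holds Frizzleds inside the cell, had 2.01, 1.20 and 0.883 FPKM in WT and 44.2, 37.1 and 31.3 in HDCKO (log2 change 4.38, SE 0.26, adjusted p = 0.000215), a gap with no overlap. Tpbg (-2.61) and the secreted glycoprotein Cthrc1 (-2.96) were lower. Within the destruction complex and Dishevelled list, 2 of 16 (12.5%) were higher and 7 (43.8%) lower, beside the 17.8% and 42.6% over all genes. Dvl1, an adaptor below Frizzled, had 17.1 ± 1.30 FPKM in WT and 38.0 ± 6.77 in HDCKO (log2 change 1.11), while its relative Dvl2 was lower (-0.93). Ctnnb1, which encodes beta-catenin, had 212, 248 and 196 FPKM in WT and 91.2, 92.3 and 139 in HDCKO (log2 change -1.04, SE 0.22, adjusted p = 0.0112).

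Nuclear partners of beta-catenin were higher in 1 and lower in 4 of 13 cases, or 30.8% lower, under the 42.6% over all genes. Among those called were the co-activator Pygo1 (1.18), the co-repressor Tle3 (-1.80) and Ctbp2 (-1.05). Planar polarity and non-canonical genes were lower in 7 and higher in 0 of the 15 tested, or 46.7% lower, near the 42.6% over all genes. Among the lower ones were Nfatc4 (-2.05), the formin Fmnl2 (-1.92) and the polarity protein Vangl1 (-1.39). In limma 0 of those 15 were higher at an unadjusted p under 0.05 as well. Celsr1, Celsr2 and Celsr3 of that list were under the filter and were not tested. Celsr2 was higher without overlap, with 0.641 ± 0.158 FPKM in HDCKO and 0.108 ± 0.0199 in WT. Celsr3 was lower without overlap, with 0.0159 ± 0.0189 FPKM in HDCKO and 0.973 ± 0.557 in WT. Celsr1 had 0.279 ± 0.256 FPKM in HDCKO and 0.114 ± 0.0780 in WT, with overlap. Genes often cited as beta-catenin targets did not share the direction of Axin2 in most cases: of 15 tested, 1 was higher and 9 were lower, where 17.8% and 42.6% of all genes tested were called in those directions. Of the markers of dividing cells 5 of 6 were lower. Of the macrophage markers 3 of 8, or 37.5%, were lower, under the 42.6% over all genes. The part of these cells in this count was not tested. The one that was higher was the receptor Tnfrsf19, with 0.178, 0.175 and 0.148 FPKM in WT and 2.15, 2.58 and 1.605 in HDCKO (log2 change 1.95, SE 0.19, adjusted p = 0.000853). Twist1 (-1.97) and Fst (-2.02) were lower, and many genes of this list are also controlled by other pathways. Without 1 library the calls of Mesd, Wls, Ryk, Ctnnb1 and Cthrc1 were lost, with adjusted p-values from 0.0506 to 0.0830.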

How the data were processed

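RNA-seq was made from hind limb muscle of 3 HDCKO and 3 WT mice, 1 library per mouse. The deposited values are FPKM per gene, as the authors computed them. The submitters' processing notes name FastQC 0.11.9, HISAT2 2.1.0, HTSeq 0.11.2, STAR 2.7.11b, DESeq2 1.22.2 and GRCm39. The sources used here do not say which aligner gave the deposited FPKM, or how shared and opposite-strand reads were treated. The steps between low FPKM values gave whole fragments, within 0.02, for 5571 of 5596 low genes, and relative depth was 0.857 to 1.09 times that of HDCKO replicate 1. Fragment numbers are the smallest whole numbers that fit these steps and describe depth only.

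All genes whose mean reached 0.5 FPKM were tested on log2(FPKM + 0.5) with limma 3.58.1 (with an intensity trend) in R 4.3.3, with Benjamini-Hochberg adjustment over 13288 genes and a threshold of 0.05. The fit was tested on simulated data. Fold changes on this scale understate those of low genes, and ratios are of mean FPKM. Every member with a mean of at least 0.5 FPKM is named with values, lower members by range or fragment number, with their values where they reached 0.5 FPKM in a library, and from each list of other pathway genes the 3 with the smallest p. Celsr1, Celsr2 and Celsr3, which were under the filter, are named besides. The members and lists were chosen with earlier results of these data known. Alternatives were other pseudocounts and filters, median-of-ratios and quantile scaling, array quality weights, the replicate number as a block, and leaving out each library. Sequences and coordinates are from the GRCm39 genome with GENCODE release 39 for mouse (M39). Motifs were searched on both strands of the 250 bases before each canonical start.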

Additional observations from a re-analysis of the deposited data

How the results depend on the processing

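The same 10 members passed under all 14 alternatives: Axin2, Frzb, Fzd1, Fzd2, Fzd7, Fzd9, Ror1, Ror2, Wnt2 and Wnt4. With array quality weights 11 members were higher and 10 lower, when 10786 of all genes were called against 8020 without weights on the same genes and scale, and 11 other pathway genes were higher and 52 lower. The members added by the weights were Fzd4, Lef1, Tcf7 and Wnt6 as higher and Fzd5, Fzd6, Sfrp1 and Sfrp2 as lower. The members' median log2 change was 0.41 with median-of-ratios scaling and 0.32 with quantile normalization, where 22 and 17 other pathway genes were higher. When each library was left out in turn, that median ran from -0.060 to 0.22 (0.22 without HDCKO replicate 2), members higher from 5 to 10, members lower from 5 to 9, and other pathway genes lower from 19 to 45. The changes that reversed, none of them past the threshold in either fit except Ryk, were Fzd6 (0.13 with median-of-ratios scaling, 0.033 with quantile normalization), Fzd8 (0.33, 0.22, and from -0.27 without WT replicate 2 to 0.030 without WT replicate 3), Sfrp5 (0.48, 0.40, 0.27 with array weights, and from -0.17 without HDCKO replicate 2 to 0.14 without HDCKO replicate 3, with 0.07 without WT replicate 2), Rspo3 (-0.32 with array weights, -0.21 without HDCKO replicate 3) and Ryk (0.014 with median-of-ratios scaling). The cause was not tested.

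Whether the replicate numbers pair the mice cannot be decided from 3 libraries per group. Same-numbered libraries deviated from their group means with correlations of 0.122, 0.0666 and 0.138. Differently numbered ones did so with correlations from -0.182 to 0.112, and HDCKO replicate 2 correlated best with WT replicate 1 (0.112). With the replicate block 7 members were higher and 8 lower, with Sfrp2 (-2.56, limma adjusted p = 0.0146) and Sfrp4 (-0.96, adjusted p = 0.0442) added, and 7170 genes were called in all. Of the 17 members under the filter, which is set on mean FPKM, 10 are listed at 0 in at least 1 library. Not all of the 17 were short of fragments. Fzd3 had 426 fragments in WT and 349 in HDCKO, more than the tested Rspo1 with 128 and 63. With 3 against 3 libraries an exact permutation test of 1 gene cannot go below p = 0.1, so calls rest on the spread limma pools over genes.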
